A study of Caenorhabditis elegans with 4 samples.

Results

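The genes described here bear the symbols of early zygotic genes of Caenorhabditis elegans, which are among the first genes that the embryo itself transcribes. They are called early zygotic genes for their symbols, and whether their RNA in these libraries came from embryos was not tested. The set holds 43 of the 46934 gene identifiers counted, namely 33 identifiers whose symbol is sdz followed by a number (32 symbols, since sdz-25 names 2 identifiers) and 10 regulators, pes-10, end-1, end-3, med-1, med-2, tbx-35, tbx-37, tbx-38, ceh-51 and hlh-27. The genes were chosen by symbol, but with their values in ATTF-6 depletion and control libraries already known. Values from that contrast are therefore a description, and no p-value is given for any of these genes. All 43 are annotated as protein coding.

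The data are mRNA-seq of entire adult worms, with 2 ATTF-6 depletion libraries and 2 control libraries. The sample titles call them small RNA libraries, but the study's methods and the gene counts are those of mRNA-seq. The ATTF-6 depletion animals carried GFP::tev::aid::attf-6 on chromosome I together with wrdSi51, a chromosome II insertion in which the germline mex-5 promoter drives TIR1 with an mTagBFP2 marker. The control animals carried wrdSi51 alone. Both groups were kept at 20 °C and moved as L4 larvae to plates with 4 mM auxin, on which they became adults, so the tagged allele and the loss of ATTF-6, an AT-hook transcription factor, cannot be told apart. Because TIR1 was driven in the germ line, other tissues were not the target of the depletion. In whole-animal libraries, fewer embryos or germ cells and less RNA per embryo or cell cannot be told apart. The paper reports from imaging that the germ line was atrophied after depletion from the L4 stage, and the part of this atrophy in the values here was not tested. The study's methods call the replicates biological, but the labels do not say that they came from separate cultures, so their spread may be technical in part.

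The early C. elegans embryo lives on maternal RNA and protein until its blastomeres begin to transcribe. Maternal SKN-1, a transcription factor, acts in the EMS blastomere, where it turns on med-1 and med-2, a pair of GATA-type factors. The MED factors activate end-1 and end-3 in the E daughter, which forms the intestine, and tbx-35 in the MS daughter, which forms muscle and pharynx cells. The sdz genes (SKN-1 dependent zygotic) are named for transcripts of the early embryo that need SKN-1. Embryos develop inside the adult hermaphrodite, so their RNA can enter libraries of whole adults.

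Gene counts summed to 23923423 and 27269737 in the ATTF-6 depletion libraries and to 32096525 and 29753993 in the control libraries. Protein-coding genes held 84.7% and 87.7% of these counts upon depletion and 92.6% in each control library, and the part of this difference in the values below was not tested. The attf-6 mRNA itself had 2290 and 3504 counts upon depletion, against 5310 and 5233 counts in the control, but auxin acts on the protein, so this does not measure the depletion. The marker lists for cell types moved with the groups. All 15 germ cell markers and 11 of 13 oocyte markers were lower in edgeR's quasi-likelihood test at an adjusted p of 0.05 over 16591 genes, and the 2 oocyte markers that were higher were perm-2 and perm-4. The oocyte list summed to 2874 and 3375 CPM (normalised counts, relative to each library's total and its TMM scaling factor) in the depletion libraries and to 10211 and 10196 CPM in the control libraries, and the germ cell list summed to 1040 and 1268 CPM upon depletion and 2996 and 3007 CPM in the control. Of 18 markers of somatic tissues, 11 were higher and 0 lower, with sums of 24503 and 25057 CPM upon depletion and 15750 and 15617 CPM in the control. Of 10 sperm markers, 9 were higher and 1 lower, with sums of 169 and 193 CPM upon depletion and 97.5 and 94.8 CPM in the control. Of all genes tested, 32.1% were lower and 30.9% higher. No marker of these 4 lists was at 0 in any library, and the part of the marker shifts in the values below was not tested.

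Most of the early zygotic genes were at low levels, and the mean of 39 of the 43 was lower upon ATTF-6 depletion. This count includes genes whose groups overlapped, such as sdz-24, med-1 and sdz-23, and the share of all genes with a lower mean was not computed. Together the 43 genes had 1466 and 1555 counts in the depletion libraries and 2635 and 2560 counts in the control libraries. Most of what was left upon depletion belonged to 4 genes, sdz-6, sdz-8, sdz-24 and sdz-27, which were set apart after their values were seen and which summed to 60.7 and 52.5 CPM upon depletion and to 30.6 and 31.1 CPM in the control. The other 39 genes summed to 88 and 93 counts upon depletion and to 1637 and 1620 counts in the control. That is 3.9 and 3.34 CPM upon depletion and 50.2 and 53.6 CPM in the control, or 6.93% of the control level.

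Over all 43 genes, 34 had both depletion libraries below both control libraries, 2 had both above, and 7 overlapped. Among the 27115 genes whose counts over the 4 libraries came to 1 or more, 27.3% lay below in this way and 33.2% above. edgeR's expression filter kept 27 of the 43. A gene kept only because its control counts were high had to differ, so neither the counts of calls nor the median of the genes kept is evidence about the set. At an adjusted p of 0.05, 23 of the 27 were lower and 2 higher upon depletion, beside 32.1% lower and 30.9% higher of all 16591 genes tested. The median log2 fold change of the 27 was -3.71 (-3.63 with the 2 genes at 0 upon depletion set to 3 counts), beside a median of 0.16 and a lower quartile of -0.83 over all genes tested. With no expression filter, which brings in all 43, the median was -3.24, beside 0.2 over all genes.

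The best counted of the regulators was pes-10 (WBGene00003983), an early marker of transcription in somatic blastomeres. It lies on chromosome II from 12846191 to 12847836 on the minus strand in WBcel235, the build of all positions given here. It had 7 and 4 counts in the depletion libraries and 149 and 133 counts in the control libraries, or 0.226 ± 0.117 CPM upon depletion and 4.49 ± 0.121 CPM in the control (SD, n = 2 each). Both depletion libraries lay far below both control libraries, and the log2 fold change was -4.33 (standard error 0.39). The depletion level was 4.85% of the control level, with an exact 95% interval of 2.39% to 8.81% that covers counting error only, as do all intervals below. Of the 16591 genes tested, 1.46% had a lower log2 fold change. Since pes-10 was chosen with its values known and passed the expression filter through its control counts alone, nothing is read from this rank.

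The endoderm genes end-1 (V: 13985128 to 13987074) and end-3 (V: 14014695 to 14015980), GATA factors that specify the E lineage, were both lower upon depletion. The gene end-1 had 0 and 1 counts upon depletion, against 15 and 19 counts in the control, and end-3 had 2 and 1 counts upon depletion, against 8 and 19 counts in the control. For both genes all depletion values lay below all control values. Summed over the pair, the depletion level was 8.15% of the control (95% interval 2.15% to 22%).

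The T-box gene tbx-35 (II: 5524101 to 5525397), which specifies MS, had 1 and 1 counts upon depletion and 2 and 6 counts in the control. The homeobox gene ceh-51 (V: 18874133 to 18875982), which acts after tbx-35, had 3 and 2 counts upon depletion and 10 and 23 counts in the control. The groups did not overlap for either gene, but the interval of tbx-35, 3.21% to 156% of the control, includes 100%. Summed over the pair, the depletion level was 21.2% of the control (95% interval 8.03% to 47.8%).

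The T-box genes tbx-37 (III: 11224808 to 11227125) and tbx-38 (III: 11784082 to 11786061) act redundantly in descendants of the ABa blastomere. The gene tbx-37 had 0 counts in both depletion libraries and 11 and 12 counts in the control, which makes it at least 6.17-fold lower upon depletion (against 3 counts summed over the group, a limit that leaves out the counting error of the control, as do the other such limits below). The gene tbx-38 had 1 and 2 counts upon depletion and 25 and 24 counts in the control. The 2 control libraries differed little for these genes, and the summed pair stood at 5.18% of the control level (95% interval 1.04% to 15.8%). The gene hlh-27, a bHLH factor of the REF-1 family, had 4.5 and 0 counts upon depletion and 10 and 10 counts in the control. A fractional count means that reads were shared with another locus, so the value of hlh-27 is uncertain.

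The level of the MED genes could not be compared at this depth. The gene med-1 had 0 and 0 counts upon depletion and 2 and 0 counts in the control, and med-2 had 0 and 2 counts upon depletion and 0 and 2 counts in the control. Summed over the pair, the ratio had a 95% interval of 5.62% to 434% of the control. Of the 10 regulators, 3 (pes-10, tbx-38 and end-1) passed the expression filter. Both depletion libraries lay below both control libraries for 8 of the 10, med-1 and med-2 being the exceptions, and for 27.3% of all genes with a count.

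**Figure D1:**
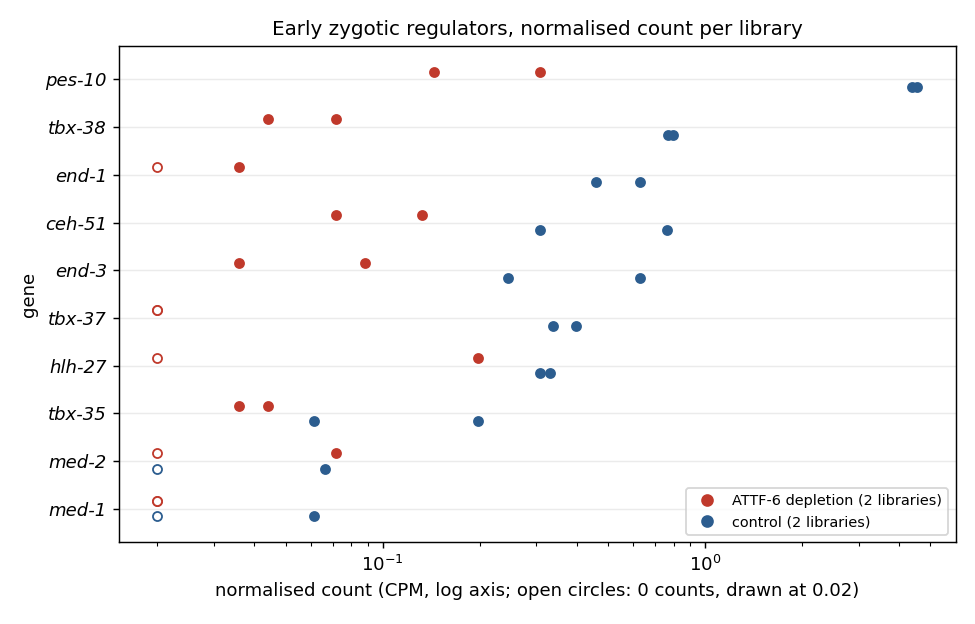
Normalised counts (CPM, log axis) of the 10 regulators in each of the 2 ATTF-6 depletion libraries and the 2 control libraries, with open circles for libraries at 0 counts. For 8 genes both depletion points lie left of both control points, as for pes-10 (means of 0.226 CPM upon depletion and 4.49 CPM in the control), while med-1 and med-2 overlap. Of all genes with a count, 27.3% lie to the left in this way.

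Among the sdz genes, 14 identifiers had at least 50 counts in both libraries of a group. The lowest share of the control level was that of sdz-25, whose 2 copies lie on opposite strands of chromosome IV, 3966 bp apart with no protein-coding gene between them, WBGene00019791 from 8405022 to 8406611 on the minus strand and WBGene00019788 from 8410578 to 8412167 on the plus strand. They have the same exonic length, 990 bp, and nearly equal fractional counts, so they are treated as 1 signal in the sum that follows. In the counts of genes and in the medians given here, each copy still enters as a gene of its own. The 2 copies together had 2 and 0 counts upon depletion and 180 and 199 counts in the control, or 0.656% of the control level (95% interval 0.0791% to 2.39%).

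The gene sdz-30 (I: 13307051 to 13308685), a gene with a single exon, had 1 and 7 counts upon depletion and 290 and 230 counts in the control. Its log2 fold change was -5.68 (standard error 0.43). The gene sdz-28 (II: 2131070 to 2132475) had 14 and 6 counts upon depletion and 210 and 197.5 counts in the control. Its log2 fold change was -4.0 (standard error 0.38). For both genes all depletion values lay below all control values, and the fractional count of sdz-28 marks reads shared with another locus.

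The neighbours sdz-9 and sdz-10 lie 102 bp apart on the minus strand of chromosome II, with no protein-coding gene between them. The gene sdz-9 had 1 and 1 counts upon depletion and 75 and 55 counts in the control (1.91% of the control, 95% interval 0.229% to 7.05%). The gene sdz-10 had 1 and 4 counts upon depletion and 32 and 27 counts in the control (10.5% of the control, 95% interval 3.3% to 26%). Both genes were lower in both depletion libraries, and their intervals overlap.

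The gene sdz-4 had 0 and 2 counts upon depletion and 59 and 65 counts in the control. The gene sdz-16 had 1 and 5 counts upon depletion and 50 and 50 counts in the control. The gene sdz-14 had 5 and 4 counts upon depletion and 70 and 70 counts in the control. These 3 genes had 2%, 7.46% and 7.99% of the control level, and in each the depletion libraries lay far below the control libraries. The gene sdz-21 had 5 and 3 counts upon depletion and 67 and 63 counts in the control. The gene sdz-26 had 8 and 4 counts upon depletion and 75 and 57 counts in the control. Their log2 fold changes were -3.66 (standard error 0.50) and -3.10 (standard error 0.49).

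The gene sdz-33 (III: 11907477 to 11908518) differed less. It had 13 and 26 counts upon depletion and 54 and 101 counts in the control, which gave -1.70 as its log2 fold change (standard error 0.45). Its groups did not overlap, but its control libraries differed by a ratio of 2.02, and without control replicate 2 the log2 fold change was -1.14 and the call was lost.

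**Figure D2:**
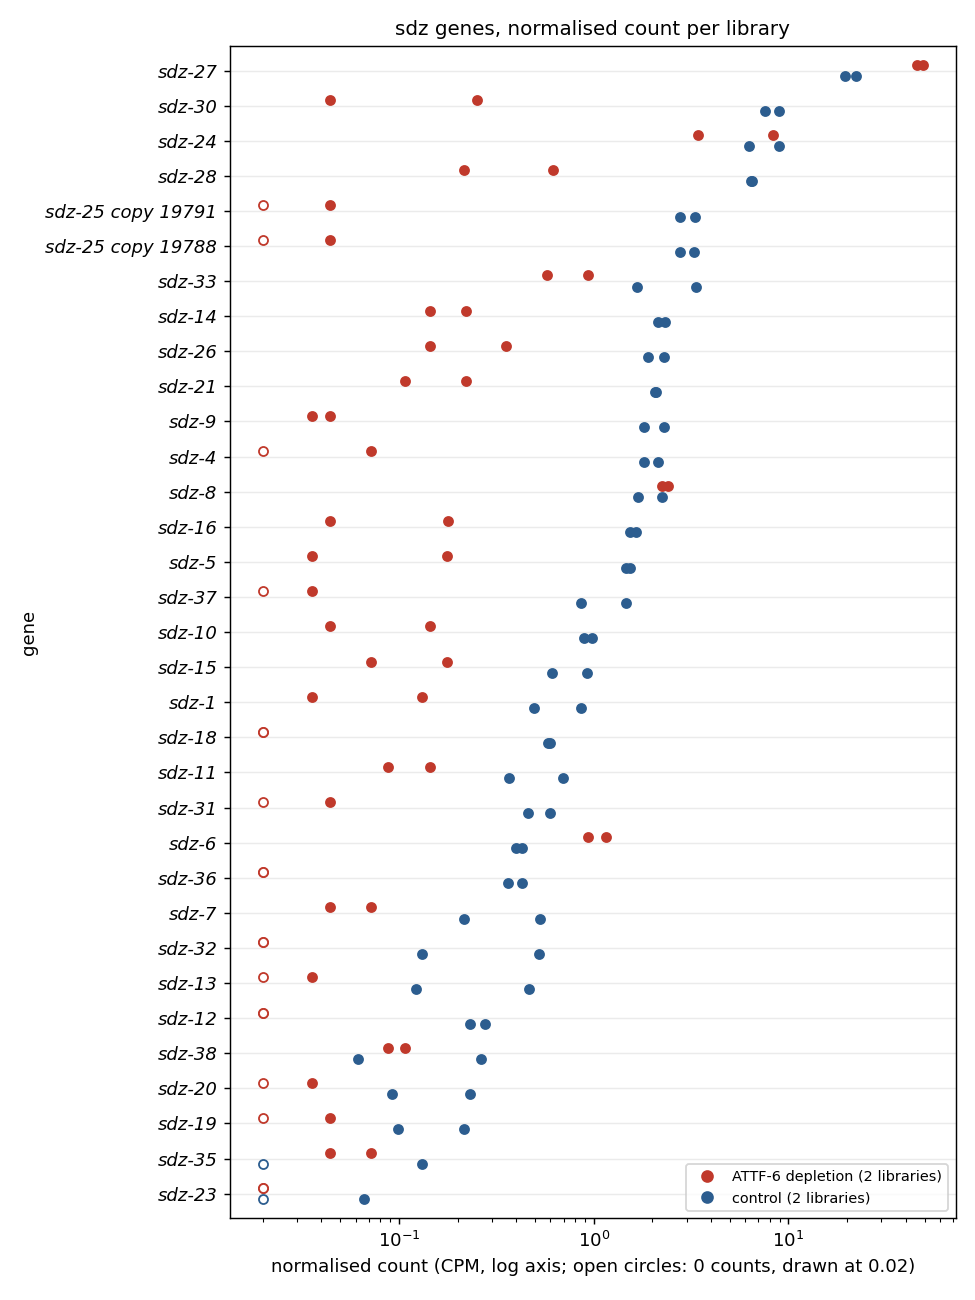
Normalised counts (CPM, log axis) of the 33 sdz identifiers in each of the 2 ATTF-6 depletion libraries and the 2 control libraries, in order of the control mean, with open circles for libraries at 0 counts. For 26 identifiers both depletion points lie left of both control points, sdz-27 and sdz-6 lie to the right, and sdz-24, sdz-8, sdz-38, sdz-35 and sdz-23 overlap. Of all genes with a count, 27.3% lie to the left and 33.2% to the right in this way.

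A few sdz genes did not follow the others. The gene sdz-27 (IV: 11187029 to 11188264) had the most counts of the set, with 1107 and 1278 counts upon depletion and 726 and 589 counts in the control, or 47.3 ± 2.06 CPM upon depletion and 20.9 ± 1.97 CPM in the control (SD, n = 2 each). Its log2 fold change was 1.18 (standard error 0.12), both depletion libraries lay above both control libraries, and it was called higher under every alternative tried, with values of 0.64 to 1.26. The gene sdz-6 (V: 19320613 to 19321351) had 26 and 26 counts upon depletion and 13 and 13 counts in the control, which gave 1.31 as its log2 fold change (standard error 0.47). The call of sdz-6 was lost with DESeq2, with RLE size factors, when the libraries were scaled so that the somatic markers were level, and without any one of the 4 libraries, with log2 fold changes of 1.21 with DESeq2, 1.2 with RLE, 0.78 with the somatic scaling and 1.16 to 1.41 with a library left out. Where a library is left out, its group has 1 sample, which is assumed to vary like the other group.

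The gene sdz-8 (V: 11515086 to 11516191) had 55 and 62 counts upon depletion and 55 and 68 counts in the control. Its log2 fold change was 0.24 (standard error 0.29), and it was -0.30 when the libraries were scaled to the somatic list, a scaling that moves the median of all genes by -0.54. The gene sdz-24 (II: 658669 to 659846) had 190 and 96 counts upon depletion and 204 and 271 counts in the control, which gave -0.38 as its log2 fold change (standard error 0.37). The 2 depletion libraries differed by a ratio of 0.412 (replicate 2 over replicate 1, 95% interval 0.319 to 0.529). Without depletion replicate 1 the log2 fold change was -1.15 and was called, and without depletion replicate 2 it was 0.09. It was also called, at -0.93, with all 4 libraries under the somatic scaling.

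Of the 10 sdz genes that passed the filter with fewer counts, 9 were called lower and sdz-6 was called higher, beside 32.1% lower and 30.9% higher of all genes tested, and most of these genes passed through their control counts alone, so nothing is read from this count. The lower ones were sdz-1, sdz-5, sdz-10, sdz-11, sdz-15, sdz-18, sdz-31, sdz-36 and sdz-37. The genes sdz-18 and sdz-36 had 0 counts in both depletion libraries, with 19 and 18 counts and 14 and 11 counts in the control libraries, so they were at least 9.92-fold and 6.7-fold lower upon depletion. The gene sdz-37 had 0 and 1 counts upon depletion, against 48 and 26 counts in the control. Without control replicate 2 the calls of sdz-1 (log2 fold change -2.57) and sdz-15 (-2.33) were lost, and that of sdz-11 was lost with DESeq2 (-2.29) and without any one of the 4 libraries (-2.58 to -1.63). The 9 sdz genes that did not pass had at most 3 counts in a depletion library and at most 17 counts in a control library. While 27.3% of all genes with a count had both depletion libraries below both control libraries, 6 of the 9 did. Among these, sdz-32 had 0 counts in both depletion libraries and 17 and 4 counts in the control libraries, and sdz-12 had 0 counts in both depletion libraries and 9 and 7 counts in the control libraries, at least 5.63-fold and 4.29-fold lower upon depletion.

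**Figure D3:**
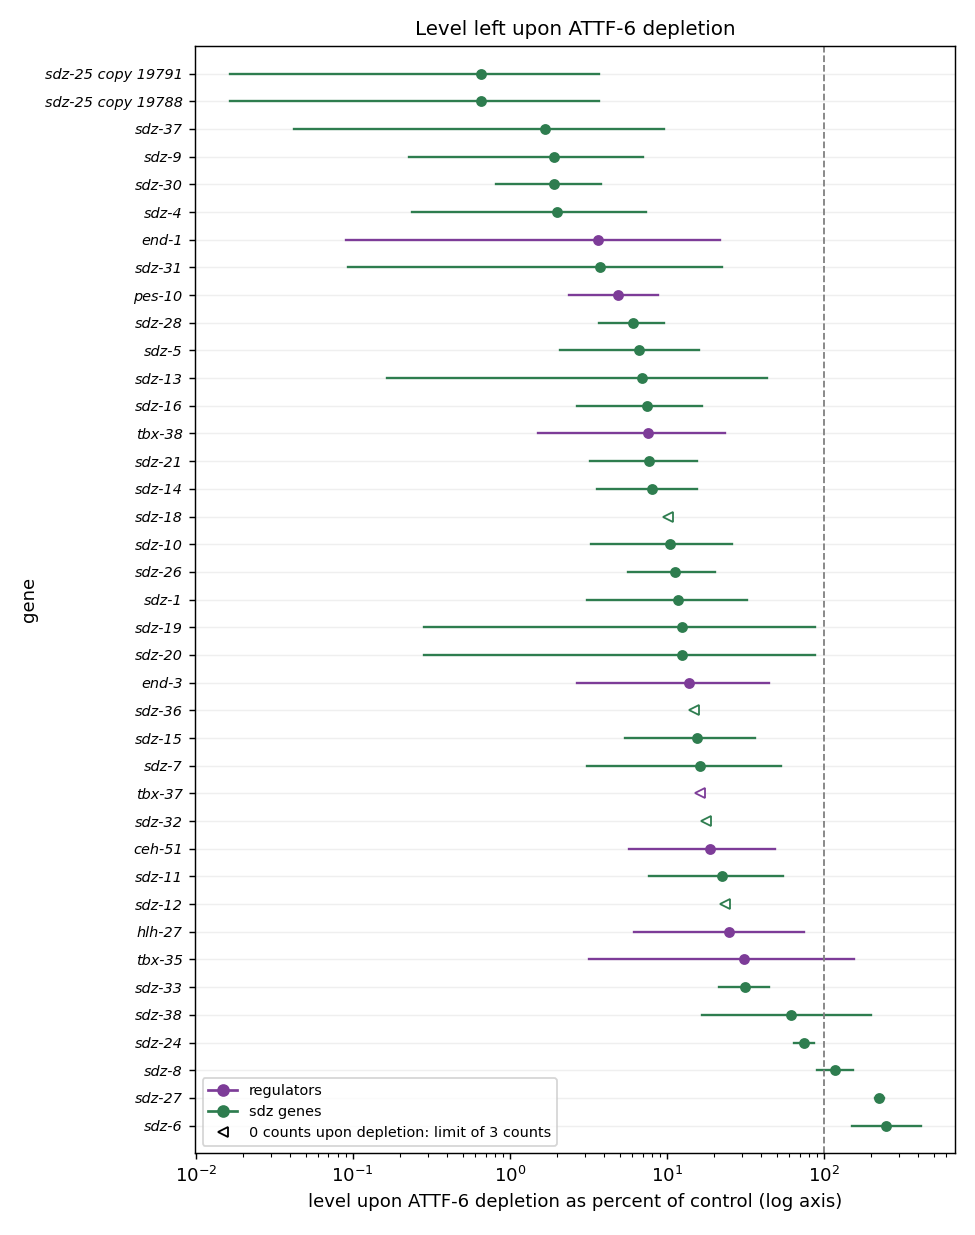
Level upon ATTF-6 depletion as a percent of the control level (log axis), from counts summed over the 2 libraries of each group, for the 39 identifiers with at least 5 control counts, with exact 95% counting intervals and triangles for the limit set by 3 counts where depletion had 0. The values run from 0.654% for sdz-25 to 249% for sdz-6, and the dashed line marks no change.

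Levels in the control can be compared between genes per kilobase of exon. The median of the 43 genes was 0.727 CPM per kb, against 6.48 CPM per kb over the genes tested, and 41 of the 43 lay below the median of the genes tested. The 43 include 16 that the expression filter left out and that had to lie low, so the sets are not alike. The highest was sdz-27 with 31.6 and 27.7 CPM per kb in the 2 control libraries, followed by sdz-24 with 6.74 and 9.66 CPM per kb. Next came sdz-28 with 5.32 and 5.4 CPM per kb and sdz-30 with 5.44 and 4.65 CPM per kb, which did not differ beyond their spread. The copies of sdz-25 and pes-10 also overlapped, at 2.79 to 3.33 CPM per kb and at 3.14 and 3.02 CPM per kb. Among the lineage regulators, tbx-38, end-1, ceh-51 and end-3 lay between 0.505 and 0.741 CPM per kb on average. The control values of neighbours in this order overlapped. The end-3 values were 0.284 and 0.727 CPM per kb and the tbx-38 values were 0.728 and 0.754 CPM per kb. The higher end-3 value and the lower tbx-38 value were nearly equal, and the end-3 values rest on 8 and 19 counts, so no order is read from them.

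The 2 control libraries were compared with each other as well, over the 33 genes with at least 20 control counts in all. The libraries are numbered as in the labels. Another listing by the study may number them the other way round, which would invert each ratio. The median ratio of control replicate 2 over control replicate 1 was 1.08. The share of all genes whose exact 95% counting interval included 1 was not computed, so nothing particular to these genes is read from the count here. For 26 of the 33 the interval included 1. It lay above 1 for end-3 (2.56), ceh-51 (2.48), sdz-33 (2.02) and sdz-24 (1.43), and below 1 for sdz-27 (0.875), sdz-37 (0.584) and sdz-32 (0.254). The summed tbx-35 and ceh-51 pair had a ratio of 2.61 (95% interval 1.29 to 5.61) and the end-1 and end-3 pair had a ratio of 1.78 (95% interval 1.03 to 3.13), whereas the tbx-37 and tbx-38 pair had a ratio of 1.08 (95% interval 0.66 to 1.76) and pes-10 had 0.963 (95% interval 0.756 to 1.22). The pairs were named with these values known, and the differences between the ratios were not tested.

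**Figure D4:**
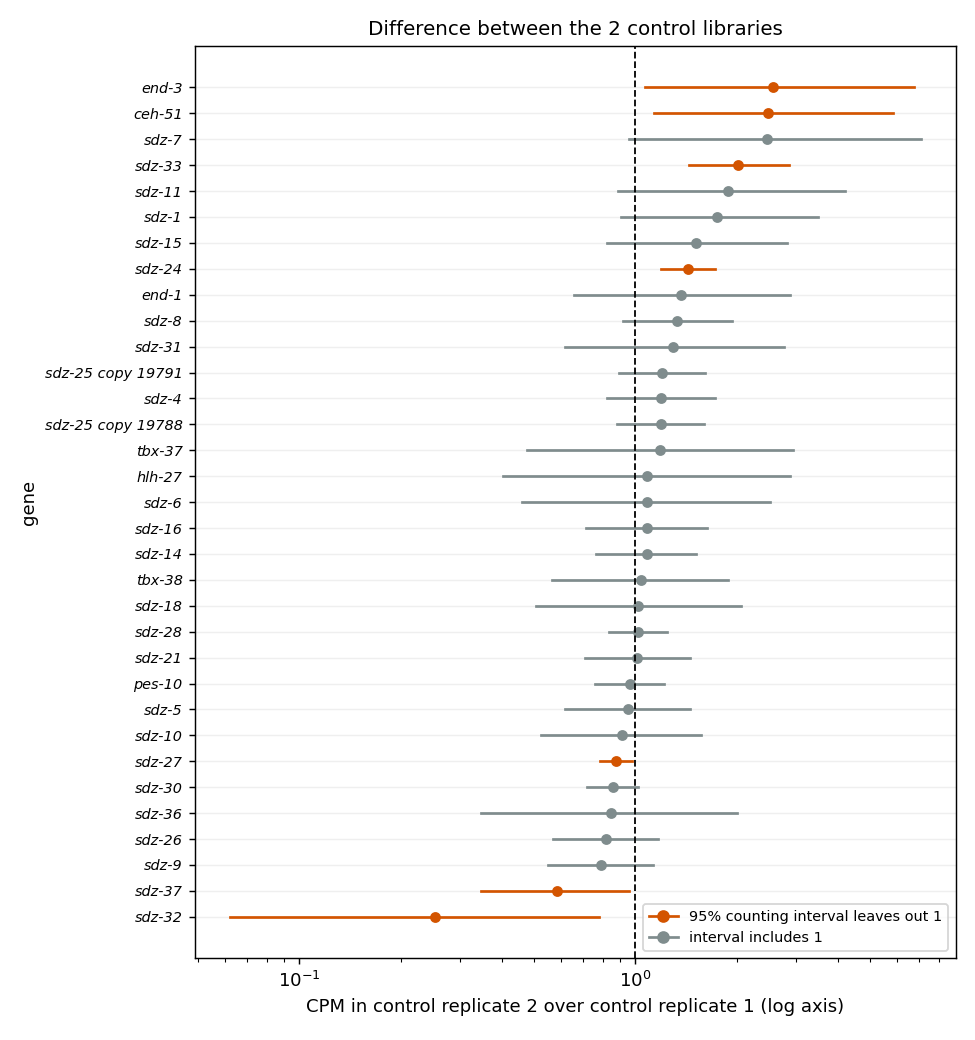
Ratio of CPM in control replicate 2 to CPM in control replicate 1 (log axis) for the 33 identifiers with at least 20 control counts, with exact 95% counting intervals. Orange marks the 7 whose interval leaves out 1, from end-3 at 2.56 to sdz-32 at 0.254. The share over all genes was not computed.

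The genes are unevenly placed in the genome. Chromosome II holds 18 of the 43, or 41.9%, against 17.3% of all protein-coding genes. Of these 18, 12 start within the first 4 Mb of the chromosome, all of them sdz genes, where 29.4% of the 3449 protein-coding genes of chromosome II start. The limit of 4 Mb was chosen after the positions were seen, and no test was made. Besides sdz-9 and sdz-10, the pairs that lie within 30 kb of each other are sdz-11 and sdz-12, tbx-35 and hlh-27, the copies of sdz-25, and end-1 and end-3. The median exonic length was 990 bp, against 1160 bp over 19984 protein-coding genes, and 5 of the 43 (11.6%), among them med-1 and med-2, have a single exon, against 3.49% of protein-coding genes.

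Related genes were counted in the same fit, in 3 lists of maternal regulators, other embryonic genes and stress genes that SKN-1 activates. Of 24 maternal regulators of the early embryo, edgeR's quasi-likelihood test called 23 lower and 0 higher, and the median log2 fold change was -1.90. Of all genes tested, 32.1% were lower and 30.9% higher. In this list mex-6, which acts with MEX-5 to set up the anterior of the zygote, had the lowest value, within its standard error of those of pos-1 (-2.68) and spn-4 (-2.61), with 848 and 1338 counts upon depletion and 8890 and 8472.67 counts in the control (log2 fold change -2.69, standard error 0.14, adjusted p = 2.6e-06, edgeR). The value nearest to 0 was that of kin-19, a casein kinase, whose log2 fold change was -0.29 (standard error 0.12) and whose adjusted p was 0.056 in edgeR. The mRNA of skn-1 itself had 2641 and 3576 counts upon depletion and 5743 and 5457 counts in the control, giving a log2 difference of -0.54 (standard error 0.11, adjusted p = 0.002, edgeR). SKN-1 is also made in somatic tissues of the adult, so this value does not measure the maternal message alone.

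Of 34 other embryonic genes, 32 were found by symbol and 27 were tested. Of these, 14 were lower and 4 higher, with a median log2 fold change of -0.56, beside 32.1% lower and 30.9% higher of all genes tested. Some of the 14 passed the filter through their control counts alone, so nothing is read from this count or this median. The very early transcripts vet-1 and vet-6 had 4 and 2 counts and 7 and 7 counts upon depletion, and 308 and 280 counts and 727 and 557 counts in the control. Their log2 fold changes were -6.24 and -6.18 (standard errors 0.36 and 0.27). The T-box gene tbx-11 had the lowest value of the list, with 2 and 0 counts upon depletion and 139 and 117 counts in the control (log2 fold change -6.53, standard error 0.60). Since vet-1, vet-6 and tbx-11 passed the expression filter through their control counts alone, they had to differ, and no p-value is given for them. At the other end, the 4 that were higher were php-3, elt-7, dve-1 and elt-2, of which elt-2 and elt-7 are GATA factors kept on in the adult intestine. The value of php-3, a Hox gene, was the highest, 0.79 (standard error 0.19, adjusted p = 0.0054, edgeR), and none of the 4 was called higher when the libraries were scaled to the somatic list. The genes vet-1 and vet-6, elt-2, elt-7 and dve-1 were named after their values were seen.

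The 9 stress genes that SKN-1 activates in the adult intestine had 2 called higher and 2 called lower, no larger a share than the 30.9% higher and 32.1% lower of all genes tested, with a median log2 fold change of 0.69. The glutathione transferase gene gst-4 was the highest at 1.3 (standard error 0.16, adjusted p = 0.00012, edgeR), and gst-7 the lowest at -0.53 (standard error 0.10, adjusted p = 0.0015, edgeR). Under the somatic scaling 2 were called higher and 4 lower.

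**Figure D5:**
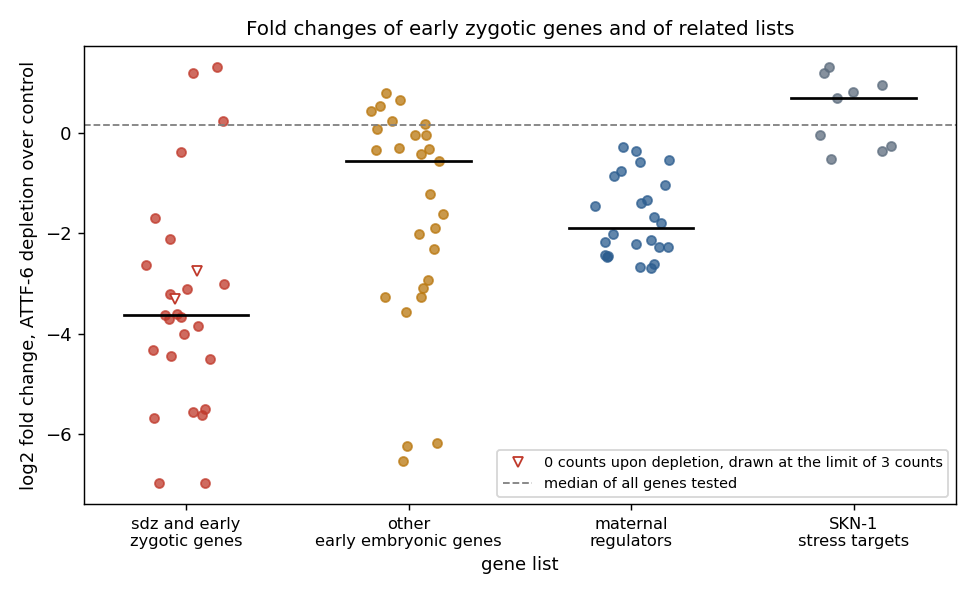
Log2 fold change, ATTF-6 depletion over control, of the 27 sdz and early zygotic genes tested and of 3 related lists, with a bar at each median and a dashed line at the median of all genes tested, 0.16. The zygotic genes centre on -3.63 with the 2 genes at 0 upon depletion drawn as triangles at their limit, the other embryonic genes on -0.56, the maternal regulators on -1.90 and the SKN-1 stress genes on 0.69. Zygotic and other embryonic genes that passed the expression filter through control counts alone had to lie low, so nothing is read from their medians.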

How the data were processed

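Per the paper's methods, the authors trimmed reads with Trim Galore, aligned them to WormBase WS279 with STAR, removed orphan mates, and counted by strand with featureCounts, dividing multi-mapped reads. The deposited values are these expected counts per gene, not normalized. Tool versions are not given in the sources used here. The 181 transposon rows were left out. Symbols came from a table of gene IDs, and positions and exon lengths from Ensembl 115 (WBcel235), which held 46924 of the 46934 IDs.

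Counts were rounded and tested in R 4.3.3 with edgeR 4.0.16: filterByExpr (minimum count 10, minimum total 15), TMM, prior count 0.125, quasi-likelihood F-test, Benjamini-Hochberg adjustment over all genes tested. DESeq2 1.42.0 was an alternative. The standard error is the log2 fold change divided by the square root of F. Fits were tested on simulated data. Percents of control use summed counts over summed effective library sizes, with Clopper-Pearson 95% intervals, and the floor is 3 counts over a group.

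The early zygotic genes, the other lists and the tests were chosen with earlier results of these data known. The rule for named genes was the 10 regulators, each sdz gene that passed the filter (counts in every library for those with 50 counts in both libraries of a group), skn-1, and the ends of each list. Promoter and protein sequences were not analysed here.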

Additional observations from a re-analysis of the deposited data

How the results depend on the processing

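Of the 295 fold changes refitted for the 27 genes tested, 276 kept their direction and side of the threshold, 15 lost the call, 2 gained it and 2 turned. The refits reuse the same libraries and hold both copies of sdz-25, and sdz-36 was not tested without control replicate 1 or without control replicate 2. These numbers describe the dependence on processing only and are not evidence about the set. The value of sdz-24 turned to 0.09 without depletion replicate 2 and gained the call at -1.15 without depletion replicate 1 and at -0.93 scaled to the somatic list. The value of sdz-8 turned to -0.30 under that scaling, which lowers nearly every gene alike (median shift -0.54), so a small positive value had to turn. The number of these genes called higher, 2, was 1 with DESeq2, with RLE size factors and with the somatic scaling. Their median, -3.71, was -4.24 with the somatic scaling and -3.24 with no expression filter, which brings in all 43. The somatic scaling turned the median of all genes to -0.38 and left 2056 genes higher in place of 5120, while 4 SKN-1 stress genes were lower in place of 2. The number of other embryonic genes higher, 4, was 2 with DESeq2, 2 with RLE size factors and 0 with the somatic scaling. With each library left out in turn, 27 to 34 of the early zygotic genes passed the filter, of which 1 was higher each time and 19 to 28 were lower, the median lay between -4.01 and -3.47, 1 to 3 other embryonic genes were higher, and 1 to 3 SKN-1 stress genes were lower. Same-numbered libraries did not deviate together (correlation -0.0113 over 16591 genes), and the replicate block gave 23 of these genes lower and 2 higher, as without it. Depth limited med-1, med-2, sdz-23 and sdz-35, with at most 4 counts in any library.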
